A study of Mus musculus with 4 samples.

Results

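The comparison was busulfan alone (B0) against control (A0), with every cell of both libraries: 8941 cells of A0 and 4659 cells of B0, together 13600 of the 27060 cells of the series. The UMIs (unique molecular identifiers, 1 for each captured transcript) of all cells of a library were pooled, and genes seen in at least 5% of the cells of either library were kept, which left 11154 of 18419 genes. Male ICR mice, an outbred stock, were 3 weeks old when the busulfan mice received 1 injection of 40 mg/kg, and both groups were then given water by gavage as the vehicle, with 0 mg/kg of the alginate oligosaccharides that the other groups received. Whether control mice had a mock injection is not given in the sources used here, and the length of dosing is given there in more than 1 form. Per the methods of the study, seminiferous tubules were cut up, washed and dissociated with TrypLE, and each library pooled 6 mice, so animals cannot be told apart and each group was 1 library. No difference below therefore has a replicate check or a test, and all intervals are exact 95% intervals that cover counting error only.

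Busulfan is an alkylating agent that crosslinks DNA and kills dividing spermatogonia, and it is widely used to empty testis tubules of germ cells. In an untreated testis, spermatogonia (SPGs) divide and enter meiosis as spermatocytes (SPCs), and the resulting haploid spermatids (STs) build the acrosome and the tail and replace histones with transition proteins and then protamines. Sertoli cells (SCs) nurse the germ cells inside the tubule, while Leydig cells (LCs) between the tubules make testosterone from cholesterol, and peritubular myoid cells, macrophages and vessels surround the tubules.

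The A0 library held 150812974 UMIs and the B0 library 25323535. The median cell had 12685 UMIs and 3358 genes in A0, against 4214 UMIs and 1917 genes in B0. Each library began at its own lowest cell, at 7687 UMIs in A0 and 2985 in B0. The main counts and the list medians are therefore also given for the cells with at least 7687 UMIs (the common UMI limit), which were all A0 cells and 581 B0 cells. These were 12.5% of the B0 cells and held 31.5% of the B0 UMIs. When each cell was thinned to 2985 UMIs, which left out 0 cells, the median number of genes per cell was 1574 in A0 and 1514 in B0. The libraries shared 56 cell barcodes, and the table lists 0 mitochondrial genes.

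With 1 CPM added to each level, the lowest log2 ratios of B0 over A0 were those of protamines and a transition protein of spermatids, and the highest was that of Insl3, the peptide hormone of Leydig cells. Of the 20 genes with the largest rises and falls, 16 had a RefSeq window, and the 4 of them with the letters TATA in the 50 bases just before their start are shown to point to that feature (build GRCm38.p6, written 5′ to 3′ on the strand of the gene, with TATA in capitals). The windows are at chr16:10796824-10796873 (Prm1), chr16:10792106-10792155 (Prm2) and chr16:10788656-10788705 (Tnp2) on the minus strand, and at chr8:71689202-71689251 (Insl3) on the plus strand.
Prm1: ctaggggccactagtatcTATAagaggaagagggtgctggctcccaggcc
Prm2: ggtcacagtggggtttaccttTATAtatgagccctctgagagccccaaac
Tnp2: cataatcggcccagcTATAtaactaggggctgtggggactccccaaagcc
Insl3: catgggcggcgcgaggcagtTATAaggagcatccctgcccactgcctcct
TATA reads the same on both strands. It was found in 4.53% of the 11025 windows of genes that passed the filter (8631 genes matched) and in 9.08% of all 32851 windows of the reference table. Among the windows of genes at least 64-fold higher in B0 the share was 12.3% of 187, and among those of genes at least 64-fold lower it was 9.09% of 33. The other 12 genes with a window, Lcn2 and Tssk6 among them, had no TATA there. The motif was chosen after the windows were seen, and its presence is a description of these letters only.

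Protamine and transition protein transcripts were close to absent from B0. Prm2, which packs sperm DNA, was at 15503 CPM (UMIs per 1000000 UMIs of the library; interval 15483 to 15523) in A0 and 21.7 CPM (19.9 to 23.6) in B0, a log2 ratio of -9.41 with 1 CPM added to each level. Prm1 was at 12309 CPM in A0 and 35.0 CPM in B0 (log2 ratio -8.42). Tnp2, a transition protein that precedes the protamines on DNA, was at 7507 CPM and 19.3 CPM (-8.53), and Tnp1 at 4712 CPM and 60.4 CPM (-6.26). These 4 genes together had 6037121 UMIs in A0, with at least 24 in each cell and a median of 153. In B0 they had 3455 UMIs in 461 cells (9.90% of cells). Only 4 B0 cells had 100 or more of them, and those 4 held 51.9% of the total. The spermatid transcripts of B0 thus sat in few cells, whereas in A0 no cell was without them. Free RNA in the suspension was not measured, and its part in the A0 values was not tested.

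The other genes with the largest falls had little or no signal in B0. Tssk6, a kinase of spermatids, was at 486 CPM (482 to 489) in A0 and 0.987 CPM (0.639 to 1.46) in B0, a log2 ratio of -7.94. Cabs1, a calcium-binding protein of spermatids, was at 575 CPM and 2.41 CPM (-7.40), Tex37 at 372 CPM and 1.26 CPM (-7.36), and 1700012A03Rik at 432 CPM and 0.632 CPM (-8.05). Another 3 had 0 UMIs in B0. Against the floor of 3 UMIs per library, Cstl1 (217.5 CPM in A0), a cystatin-like gene, was at least 1836-fold lower in B0. On the same floor, 1700016C15Rik (185.1 CPM in A0) was at least 1562-fold lower and 1700080E11Rik (163.0 CPM in A0) at least 1376-fold lower. The floor is a one-sided limit, and the 2-sided interval of a gene at 0 UMIs in B0 reaches 0.146 CPM. In all, 43 genes that passed the filter had 0 UMIs in B0 and 30 had 0 in A0.

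The largest rises held Leydig cell genes. Insl3 was at 0.935 CPM (0.787 to 1.10; 141 UMIs) in A0 and 6638 CPM (6606 to 6669; 168087 UMIs) in B0, a log2 ratio of 11.74. Its exons overlap an exon of Jak3 on the same strand, the only such overlap among the 150 genes that were checked. Other genes named in the text, among them most of the somatic and testis pairs below, were not checked. Cyp17a1, which makes androgens from pregnenolone and progesterone, was at 3.14 CPM in A0 and 3985 CPM in B0 (9.91). Lcn2, a secreted iron carrier of inflammation, was at 4.25 CPM (3.93 to 4.59) in A0 and 8990 CPM (8953 to 9027) in B0 (10.74), and it had the highest level of any gene in B0. Apoc1, a lipoprotein component, was at 1.44 CPM and 4186 CPM (10.75), and Aldh1a1, which makes retinoic acid, at 3.58 CPM and 4089 CPM (9.80). Ptgds, a prostaglandin D synthase, was at 4.26 CPM and 3569 CPM (9.41). The remaining largest rises were Akr1cl (1.48 to 2857 CPM), Scd2, a fatty acid desaturase (0.544 to 1387 CPM), Sult1e1, an oestrogen sulfotransferase (0.444 to 1237 CPM), and Tmem176a (0.650 to 1319 CPM). At the common UMI limit all 10 levels were lower than over all B0 cells, with Insl3 at 571.5 CPM, Lcn2 at 868 CPM and Cyp17a1 at 354 CPM, and their log2 ratios lay between 6.06 (Sult1e1) and 8.21 (Insl3).

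Over all genes that passed, 2986 (26.8%) were at least 4-fold higher in B0 and 973 (8.72%) at least 4-fold lower, with a median log2 ratio of 0.32. The counts were 1207 and 537 with 10 CPM added in place of 1, and the lower count was 1845 when cells were weighted equally and 1603 without the 5% of cells with most UMIs. At 64-fold the counts were 211 higher and 42 lower. The genes at least 4-fold higher held 2.38% of the A0 UMIs and 36.0% of the B0 UMIs, and those at least 4-fold lower held 24.3% of the A0 UMIs and 2.47% of the B0 UMIs. In cells at the common UMI limit, 989 of 10637 genes (9.3%) were at least 4-fold higher and 523 (4.92%) at least 4-fold lower. Of the 2986 genes, 956 (32.0%) also passed the filter at that limit and were at least 4-fold higher there, and 13 passed there with a lower level in B0. Of the 973 genes, 440 (45.2%) also passed there and were at least 4-fold lower, and 0 passed there with a higher level in B0. The count of higher genes thus changed by more than that of lower genes. With pooled cells, fewer cells of a type and less RNA per cell cannot be told apart.

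**Figure D1:**
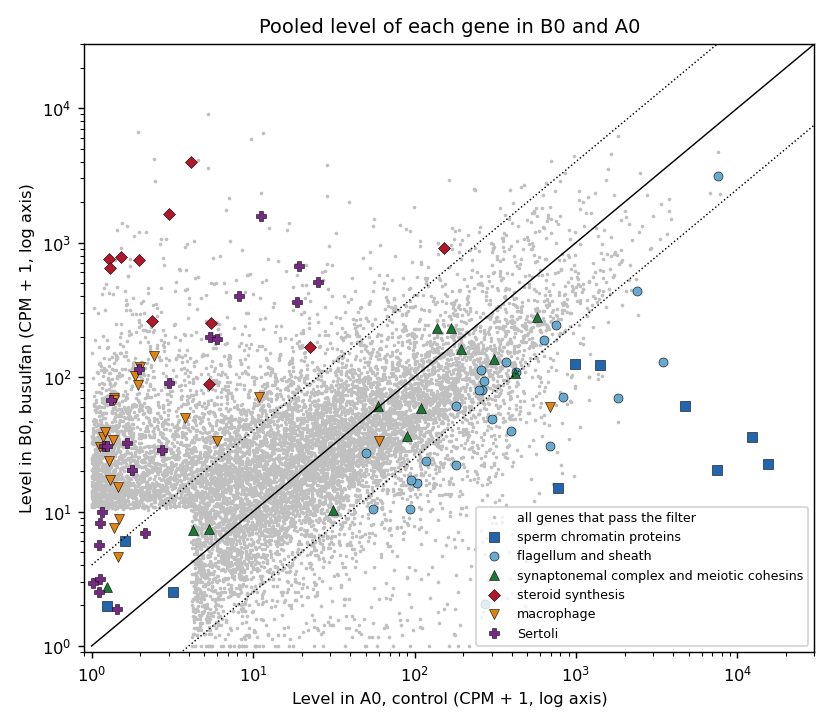
Pooled level of each of the 11154 genes that passed the filter, in CPM with 1 added on log axes, in A0 (horizontal) and B0 (vertical); the solid line marks equal levels, the dotted lines 4-fold differences, and coloured symbols all members of 6 lists in the table. The sperm chromatin proteins include Prm2 (15503 CPM in A0 and 21.7 CPM in B0), and all 11 steroid synthesis genes lie above the upper dotted line.

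Members of the lists are counted below whether or not they passed the filter, beside 21.6% higher and 5.30% lower among all 18419 genes of the table (median log2 ratio 0.31). In cells at the common UMI limit the shares over that table were 5.65% higher and 2.87% lower, with a median of 0.28. The lists were chosen with results of these data known, and their counts describe these libraries. In the germ line, the lists were ordered by stage, and their medians were above 0 for the SPG lists and far below it for the ST lists. These are medians of lists over all cells, and a list named for SPGs is not a measure within SPGs.

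Among 18 genes of undifferentiated SPGs, 6 were at least 4-fold higher and 1 lower (median 0.87). Nanos2 and Pax7, also on the list, were not in the table used. Only 6 of the 18 passed the filter. Id4, a regulator of stem cell renewal, was at 35.0 CPM in A0 and 25.6 CPM in B0, and Gfra1, the receptor for GDNF, at 2.59 and 0.908 CPM. At the common limit Id4 was at 50.4 CPM in B0, above A0. Among the higher members were Zbtb16, a transcriptional repressor (0.802 and 31.7 CPM), Etv5 and Foxo1, transcription factors (0.405 and 30.6 CPM, and 0.762 and 17.9 CPM), and Tspan8, a tetraspanin (0.385 and 112 CPM). Cells at the common limit held 3.25% of the B0 UMIs of Tspan8, 2.87% of Zbtb16 and 3.99% of Etv5, beside 2.71% for Insl3, 12.8% for the whole list and 31.5% for all B0 UMIs. After thinning, Tspan8 was found in 28.9% of B0 cells. In which cells these UMIs lay was not tested. At that limit the list had 1 higher and 1 lower member and a median of 0.38.

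Of 11 genes of differentiating SPGs, 5 were at least 4-fold higher and 0 lower (median 1.39, and 0.68 at the limit). Kit, the receptor for stem cell factor and also a gene of Leydig cells, was at 2.31 CPM in A0 and 101 CPM in B0, and cells at the limit held 2.83% of its B0 UMIs. Stra8, which is needed to enter meiosis, was at 1.27 and 29.8 CPM. Dmrtb1, which controls the switch from mitosis to meiosis, had the highest level on the list in both libraries, at 912 CPM in A0 and 300 CPM in B0, and at 845 CPM in B0 at the limit. The summed level of the list was 954 CPM in A0 and 534 CPM in B0, so the sum was lower in B0 while the median of its members was higher.

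Few members of the meiotic lists differed by 4-fold. Of 13 genes of the synaptonemal complex and the meiotic cohesins, 23 of recombination and 18 of the piRNA pathway, 0 were called in either direction, with medians of -0.25, -0.12 and -0.32. Sycp3, an axial element of the synaptonemal complex, was at 167 CPM (165 to 169) in A0 and 232 CPM (226 to 238) in B0, and Sycp1, its transverse filament, at 136 and 232 CPM. Syce1 was at 575 and 280 CPM and Syce2, a central element protein, at 416 and 107 CPM (log2 ratio -1.95). Ddx4, a helicase of germ cell granules, was at 259 and 121 CPM, and Mael, a piRNA factor, at 1266 and 397 CPM. Of 14 genes of the meiotic divisions, 1 was lower, Pou5f2 (41.0 and 8.73 CPM), and the median was -0.85; cyclin Ccna1 was at 238 and 106 CPM. The summed levels over all cells were lower in B0 for all 4 lists. They were 2090 CPM in A0 and 1325 CPM in B0 for the synaptonemal complex and cohesins, and 1744 and 949 CPM for recombination. For the piRNA pathway they were 2168 and 962 CPM, and for the divisions 1754 and 947.5 CPM. The recombination list also held the chaperone Hspa2, at 846.5 and 406.9 CPM. In cells at the common limit the B0 sums were 2492, 2149, 2250 and 2363 CPM in the same order, each above A0. At the common limit the medians of these 4 lists were 0.50, 0.29, 0.53 and 0.39, near the 0.28 of all genes in the table. From 59.2% to 78.5% of the B0 UMIs of each list were in cells at the limit. The medians of these lists thus were below 0 over all cells and above 0 in the cells at the limit.

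Shares of cells with at least 1 UMI are given after thinning, since the libraries differed in UMIs per cell. Ddx4 was found in 49.7% (48.6% to 50.7%) of A0 cells and 13.8% (12.8% to 14.8%) of B0 cells, and unthinned in 7471 of 8941 and 932 of 4659 cells. Sycp3 was found in 29.6% and 17.5% of cells, and unthinned in 59.0% and 23.5%. Its share was thus lower in B0 while its pooled CPM was higher, so no order of Sycp3 is read from these values.

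Postmeiotic lists were lower. Of 10 sperm chromatin genes, 7 were at least 4-fold lower and 0 higher (median -4.61). All 6 testis-specific serine kinases were lower (-3.42), as were 14 of 25 genes of the flagellum and sheath (-2.42), 9 of 16 of the acrosome (-2.30) and 2 of 7 spermatid transcription regulators (-1.50), and none of these had a member at least 4-fold higher. The 3 sperm chromatin genes that were not called, the linker histone Hist1h1t and the testis histones Hist1h2ba and Hist1h2aa, were at 5.01 CPM or less in both libraries. In the flagellum list, Smcp of the mitochondrial capsule was at 3450 CPM in A0 and 128 CPM in B0, and Oaz3, a spermatid antizyme, at 1820 and 69.0 CPM. Meig1, which is already present in spermatocytes, was at 7539 and 3109 CPM, and at 8683 CPM in B0 at the common limit, above A0. Among acrosome genes, Spaca3 was at 394 and 68.7 CPM and Zpbp2 at 691 and 281 CPM. Fhl5, a coactivator of the spermatid factor Crem, was at 453 and 24.96 CPM, and Crem itself at 461 and 136 CPM.

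At the common limit the postmeiotic lists were nearer to 0 and still below it, with medians of -3.13 for sperm chromatin, -1.93 for the kinases, -1.01 for the flagellum, -0.82 for the acrosome and -0.11 for the regulators. There, 6 sperm chromatin genes, 3 kinases, 5 flagellum genes, 0 acrosome genes and 1 regulator were at least 4-fold lower. Zpbp2 was at 799 CPM in B0 there, above its A0 level, while Prm1 was at 56.7 CPM, Tssk6 at 2.13 CPM and Spem1, a spermatid protein of late steps, at 2.63 CPM (274 CPM in A0). Of the 16 acrosome genes, 5 were above their A0 levels there, while Spaca3 was at 195 CPM (394 CPM in A0) and Spaca1 at 198 CPM (390 CPM in A0). Car2, carbonic anhydrase, was at 294 CPM in A0 and 2.45 CPM in B0, and its B0 count at the limit was under the floor of 3 UMIs.

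**Figure D2:**
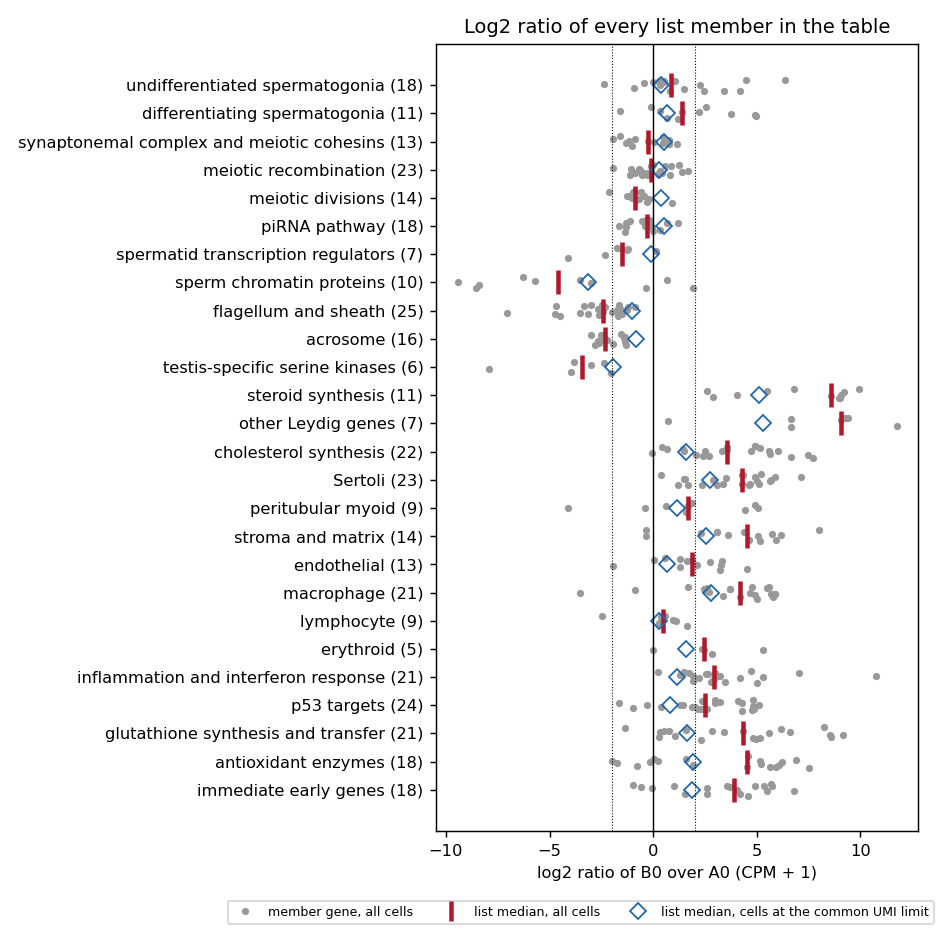
Log2 ratio of B0 over A0 (CPM with 1 added) of every list member in the table (grey points), with the list median over all cells (red bar) and in cells at the common UMI limit (open blue diamond); dotted lines mark 4-fold and the number of members is in brackets. Leydig lists are farthest to the right (medians 8.56 and 9.07) and sperm chromatin proteins farthest to the left (-4.61), and the diamonds of these lists are nearer to 0.

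Among somatic lists the Leydig genes had the highest medians. All 11 genes of steroid synthesis were at least 4-fold higher in B0 (median 8.56, and 5.11 at the limit, with 8 called there). Star, which carries cholesterol into the mitochondrion, was at 0.968 and 743 CPM, Cyp11a1, which makes pregnenolone, at 2.03 and 1644 CPM, and Hsd17b3, which makes testosterone, at 0.517 and 781 CPM. Fdx1, the electron donor of the mitochondrial cytochromes, already stood at 151 CPM in A0 and was at 918 CPM in B0. Reads of Hsd3b1 (0.279 and 757 CPM) may be shared with its near copy Hsd3b6. Of 7 other Leydig genes, 6 were higher (9.07, and 5.32 at the limit, with 6 called there), among them Prlr, the prolactin receptor, at 0.391 and 745 CPM, and Nr5a1, the steroidogenic regulator, at 0.186 and 116 CPM. Hsd11b1, a gene of mature Leydig cells, was at 0.0530 CPM in A0 and 0.750 CPM in B0. Of 22 cholesterol synthesis genes, 17 were higher and 0 lower (3.56, and 1.60 at the limit, with 7 called there), with Msmo1 at 1.07 and 364 CPM and Hmgcs1 at 26.9 and 329 CPM, whereas Fdft1 was at 323 and 314 CPM. Cells at the common limit held 3.78% of the B0 UMIs of the steroid list and 8.55% of those of the cholesterol list.

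Sertoli, stromal and macrophage lists were higher as well. Of 23 Sertoli genes, 18 were at least 4-fold higher and 0 lower (median 4.28, and 2.75 at the limit, with 16 called there). Clu, a secreted chaperone, was at 10.2 and 1569 CPM, Cst12, a cystatin, at 18.3 and 671 CPM, and Sox9, the defining transcription factor, at 0.663 and 31.2 CPM. Fshr, the receptor for FSH, was at 1.94 CPM in B0 and Amh at 2.17 CPM. Clu was found, after thinning, in 3.08% of A0 cells and 90.2% of B0 cells. Cst12 was found in 5.83% and 70.2%, and Cst9 in 5.47% and 53.55%. In which B0 cells these UMIs lay was not tested, and the rises are not read as a gain of Sertoli cells. Of 14 stroma and matrix genes, 12 were higher (4.52, and 2.56 at the limit, with 10 called there), with Sparc, a matrix glycoprotein that Leydig cells also make, at 5.83 and 1759 CPM and Dcn, a matrix proteoglycan, at 2.31 and 199 CPM. Of 21 macrophage genes, 18 were higher (4.20, and 2.79 at the limit, with 13 called higher there), with the complement subunit C1qa at 0.981 and 117 CPM and the class II chaperone Cd74 at 1.44 and 143 CPM. Of the other 3, Aif1 was at least 4-fold lower (692 and 58.7 CPM), Fcgr3, an Fc receptor, was at 59.6 and 32.3 CPM, and Ptprc at 0.458 and 3.59 CPM. Aif1 made up most of the summed level of the list in A0 (777 CPM). The sum was 1032 CPM in B0 and 550 CPM in B0 at the limit, so its direction turned with the cells used.

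Lists of other cells were less complete. Of 9 peritubular myoid genes, 3 were higher and 1 lower (1.66, and 1.15 at the limit with the same counts), and the contractile genes differed among themselves. The higher ones were Mylk, the myosin light chain kinase (5.15 and 206 CPM), Myl9 (3.22 and 88.9 CPM) and Tpm2, a tropomyosin (0.477 and 43.0 CPM), while the defining genes Acta2 (1.26 and 7.19 CPM) and Myh11 (0.789 and 1.78 CPM) were low in both libraries. Actg2, a smooth muscle actin, was at 314 CPM in A0 and 17.4 CPM in B0. Of 13 endothelial genes, 6 were higher and 0 lower (1.86), and at the limit 1 was higher and 1 lower (0.65), with Cldn5 of the tight junction at 1.17 and 49.4 CPM. Only 4 of the 13 passed the filter, and 2 of them were higher. Flt1, a receptor for VEGF, was at 13.3 CPM in A0 and 2.76 CPM in B0, a log2 ratio of -1.93 that was just short of the call, and at the limit it was the lower gene (-2.59). Of 9 lymphocyte genes, 0 were higher and 1 was lower, Cd3d (32.8 and 5.05 CPM), and the others were at 2.13 CPM or less. With the 4 lymphocyte genes that had 0 UMIs in A0 set to their bound the median was 1.08 instead of 0.48, at levels near the floor, and at the limit 0 were called in either direction (0.28). After thinning, Actg2 was found in 48.95% of A0 cells, Cd3d in 10.2% and Flt1 in 3.42%. In which A0 cells these UMIs lay was not tested, and the falls are not read as a loss of myoid, lymphocyte or endothelial cells. Among 5 erythroid genes, 4 were higher (2.45), and 1 at the limit (1.60). Only 2 of the 5 passed the filter, and these 2 were higher. Hba-a1, an alpha globin with the near copy Hba-a2, was at 14.9 and 619 CPM. After thinning it was found in 0.414% of A0 cells and 22.5% of B0 cells (unthinned in 1.42% and 33.6%). Hba-a1 alone held 619 of the 647 CPM of that list in B0. Hba-a2 was at 0.06631 and 6.595 CPM and Alas2 at 2.228 and 16.66 CPM. The beta globin gene Hbb-bs was at 0.2122 and 5.134 CPM, and Hbb-bt had 0 UMIs in both libraries. Whether the Hba-a1 UMIs came from red blood cells was not tested.

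Lists of cell responses were higher in B0 as well. Of 24 p53 targets, 17 were at least 4-fold higher and 0 lower (median 2.49, and 0.83 at the limit, with 5 called there). Bax, which opens mitochondria in apoptosis, was at 3.96 and 145 CPM and the cycle inhibitor Cdkn1a at 6.13 and 140 CPM. Mdm2, the ubiquitin ligase of p53, was at 153 CPM in A0, 78.3 CPM in B0 and 135 CPM in B0 at the limit. Of 21 genes of glutathione synthesis and transfer, by which busulfan is cleared, 14 were higher (4.35), with Gstm1 at 10.4 and 6502 CPM, Gsta3 at 0.723 and 665 CPM and Mgst1 at 1.87 and 1067 CPM. Gstm5, the transferase with the highest level in A0, was at 3891 and 1506 CPM, and the synthesis genes Gclm and Gss had log2 ratios of 0.51 and 0.74. Reads of Gstm genes may be divided among near copies.

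Of 18 antioxidant genes, 10 were at least 4-fold higher and 0 lower (4.54). Gpx1 was at 2.45 and 636 CPM, while Gpx4, which also builds the sperm mitochondrial capsule, was at 3354 and 1927 CPM and Sod1 at 440 and 512 CPM. At the common limit Sod1 was at 225 CPM in B0, below A0. Of 21 genes of inflammation and the interferon response, 15 were higher (2.91, or 3.12 with the 4 genes at 0 UMIs in A0 set to their bound). Only 7 of the 21 passed the filter, and all 7 were higher. Lcn2 alone held 8990 of the 9437 CPM of that list in B0. The chemokine Cxcl12 was at 0.272 and 167 CPM, whereas Tnf was at 0 and 1.42 CPM and Il1b at 1.26 and 1.70 CPM. Of 18 immediate early genes, which respond fast to stress or to cell isolation, 13 were higher (3.88), with Fos at 0.371 and 150 CPM. Klf4, which is also a spermatid gene, was at 75.2 and 38.0 CPM. At the limit these 4 lists had medians of 1.64 (glutathione), 1.92 (antioxidant), 1.17 (inflammation) and 1.88 (immediate early). Called there were 10 higher and 1 lower for glutathione, 9 and 2 for antioxidant, 5 and 0 for inflammation, and 9 and 0 for immediate early. The summed antioxidant level was 4919 CPM in A0, 6942 CPM in B0 and 4587 CPM in B0 at the limit. Between 3.19% and 20.8% of the B0 UMIs of each response list were in the cells at the limit, against 31.5% of all B0 UMIs. The parts of the cell mix and of cell isolation in these lists were not tested.

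The shares of UMIs per cell in germ line and somatic lists differed between the libraries in the same direction. The 11 germ line lists (161 genes) took a median of 5.71% of the UMIs of a cell in A0 (quartiles 4.44% and 11.9%) and 0.160% in B0 (0.106% and 0.388%). The 9 lists of somatic cells (112 genes) took 0.125% in A0 and 5.08% in B0. More germ line than somatic UMIs were found in 8940 of 8941 A0 cells and in 946 B0 cells (20.3%, interval 19.2% to 21.5%), and more somatic UMIs in 3708 B0 cells (79.6%, 78.4% to 80.7%). The 2 values were within 2-fold of each other in 240 B0 cells, so that most cells lay away from the line. This division uses the list genes themselves, was chosen after the data were seen and is a range, not a cell type. In A0 the lowest germ line share of any cell was 2.17%, and each cell had at least 24 UMIs of Prm1, Prm2, Tnp1 and Tnp2 together. The A0 count thus leans on transcripts found in every cell, and the part of free RNA in it was not tested.

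The B0 cells with more germ line UMIs had a median of 8561 UMIs and held 37.5% of the UMIs of the library, and the cells with more somatic UMIs had a median of 4026 and held 62.4%. Cells at the common UMI limit are therefore weighted to the germ line. Ldhc, the lactate dehydrogenase of spermatocytes and sperm, was at 5796 CPM in the former and 180 CPM in the latter, and over the whole library at 7797 CPM in A0 and 2285 CPM in B0. Insl3 is a member of the somatic lists, so the division of the cells in part sets its values here. It was at 10512 CPM in the cells with more somatic UMIs and at 198 CPM in those with more germ line UMIs. Of the latter cells, 73.9%, unthinned, had at least 1 UMI of it. Lcn2 was found in 90.7% of these same cells, unthinned, at 373 CPM. In A0, Insl3 was found in 1.01% of cells unthinned and in 0.212% after thinning, and in B0 as a whole in 90.7% and 83.2%. The part of free RNA and of doublets, which were kept, in the Insl3 and Lcn2 UMIs of these cells was not tested.

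**Figure D3:**
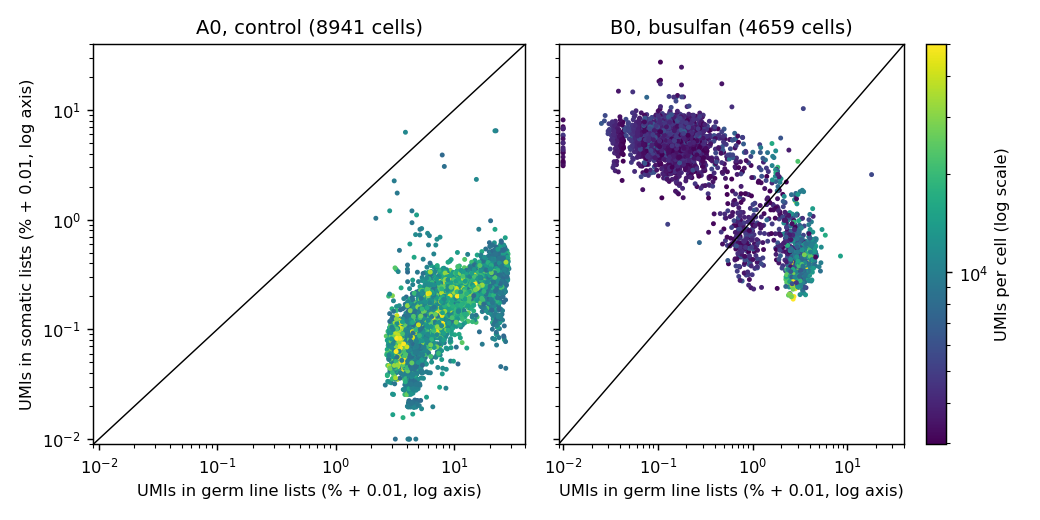
Each point is 1 cell of A0 (left) or B0 (right), placed by the percentage of its UMIs in the 11 germ line lists (horizontal) and in the 9 somatic lists (vertical), both with 0.01 added on log axes and coloured by UMIs per cell; the line marks equal percentages. In A0, 8940 of 8941 cells lie below the line, and in B0 946 do, most of them in lighter colours (median 8561 UMIs against 4026 above the line).

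Many somatic genes have a relative used in the testis, here called the testis form. The 2 forms are separate genes and may lie in different cells. In B0, after thinning, Gapdh was found in 73.8% of cells and Gapdhs in 4.46%, and Rpl39 in 84.9% and Rpl39l in 25.9%. The part of the cell mix in the shares below was not tested. Of 21 pairs of a somatic and a testis form, the testis form took a lower share of the UMIs of the pair in B0 in 19, both over all cells and at the common limit. The somatic form was at least 4-fold higher in 15 pairs and lower in 0 (median log2 ratio 3.38), and the testis form was at least 4-fold lower in 5 and higher in 0 (median -1.02). At the common limit 8 somatic forms were at least 4-fold higher (median 1.59). There 3 testis forms were at least 4-fold lower, but 14 of 21 had a higher level in B0 than in A0. Their median was -1.02 over all cells, beside 0.31 for all genes in the table, and 0.15 at the limit, beside 0.28. Its sign thus turned with the cells used, while it stayed below the median of all genes. Over all genes in the table, 21.6% were higher and 5.30% lower, and 5.65% and 2.87% at the limit. In glycolysis, Gapdh was at 16.6 and 463 CPM and its sperm form Gapdhs at 1061 and 41.8 CPM, so the Gapdhs share was 98.5% in A0, 8.29% in B0 and 54.6% in B0 at the limit. The share of Pgk2, which replaces X-linked Pgk1, was 98.9% (98.8% to 98.9%) in A0, 48.1% (46.6% to 49.7%) in B0 and 93.5% in B0 at the limit. Ldhc kept a share of 84.8% in B0 against 88.8% in A0, since Ldha was also lower (981 and 409 CPM).

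In the ribosome, Rpl39l, the testis form of Rpl39, had 99.7% of the UMIs of the pair in A0, 31.6% in B0 and 89.6% in B0 at the limit, with Rpl39 at 3.34 and 1023 CPM. Rpl10l had 86.7%, 4.58% and 46.4% in the same order, with X-linked Rpl10 at 15.3 and 1246 CPM. In the respiratory chain, Cox7b2 had 99.7%, 53.5% and 95.9%, and X-linked Cox7b was at 1.55 and 326 CPM. Testis cytochrome c, Cyct, had 84.5%, 10.9% and 45.4%. Among chaperones and the proteasome, Hspa1l had 71.6%, 0.369% and 5.28%, Calr3 had 29.3%, 1.27% and 2.33%, and Psma8, the proteasome subunit of spermatocytes, had 83.8%, 10.5% and 54.4%. The exceptions were Cstf2t, with 31.4%, 54.9% and 58.2%, and Utp14b, with 24.9%, 32.5% and 36.7%. The somatic forms of both are X-linked and were lower in B0, Cstf2 at 28.7 and 14.9 CPM and Utp14a at 40.3 and 17.3 CPM.

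**Figure D4:**
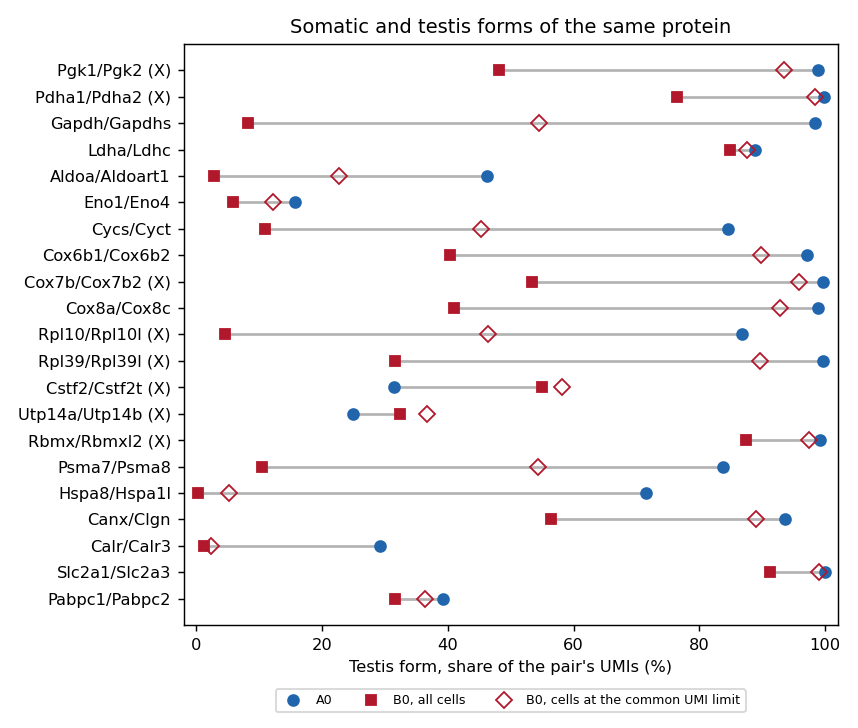
Share (%) of the UMIs of a somatic and testis pair that came from the testis form in A0 (blue circles), in all B0 cells (red squares) and in B0 cells at the common UMI limit (open diamonds), for 21 pairs, with (X) where the somatic gene is on the X chromosome. In 19 pairs the square is left of the circle, with the lowest B0 share at Hspa8/Hspa1l (0.369% against 71.6%), and Cstf2/Cstf2t (54.9% against 31.4%) is among the exceptions.

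The X chromosome, which is silenced in spermatocytes during meiosis, differed from the autosomes. Of 380 X-linked genes that passed the filter, 197 (51.8%) were at least 4-fold higher in B0 and 58 (15.3%) at least 4-fold lower, against 26.1% and 8.20% of 10379 autosomal genes. The median log2 ratio was 2.38 on X and 0.32 on the autosomes, whose own medians ranged from -0.02 (chromosome 12) to 0.61 (chromosome 6). Over all genes in the table, whether or not they passed, the median was 0.99 on X (756 genes) and 0.32 on the autosomes. A gene could pass the filter through the library where it was high. X-linked genes held 0.896% of the UMIs in A0 and 2.12% in B0. At the common limit 28.1% of the X-linked genes that passed were higher and 7.46% lower, and the median was 0.67, against 8.78%, 4.70% and 0.36 on the autosomes. The X-linked share of UMIs was 0.811% there, which was not higher than in A0. Chromosome 16, which carries Prm1, Prm2, Prm3 and Tnp2, held 6.25% of the UMIs in A0 and 2.40% in B0.

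**Figure D5:**
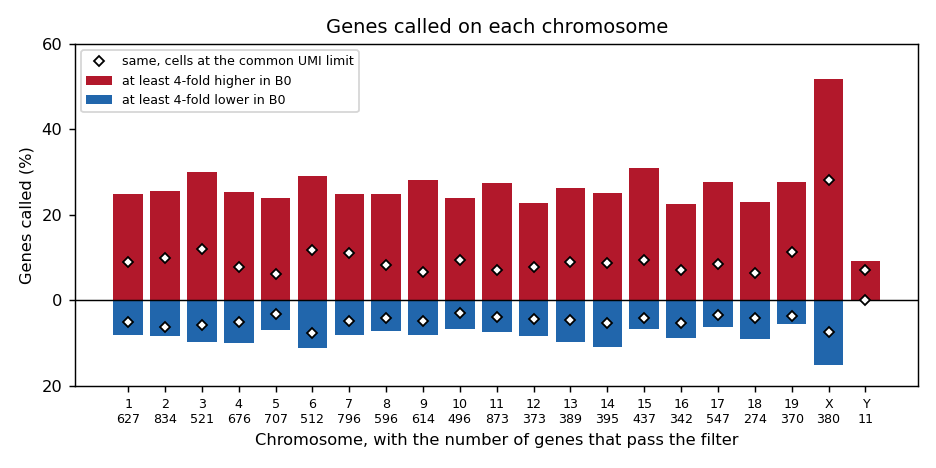
Percentage of the genes that passed the filter that were at least 4-fold higher (red, up) or at least 4-fold lower (blue, down) in B0 on each chromosome, with the same at the common UMI limit (diamonds) and the number of genes under each name. X has 51.8% higher and 15.3% lower, above the autosomes (at most 30.9% and 11.1%), and Y has only 11 genes. A gene could pass through the library where it was high, and over all genes in the table the median log2 ratio was 0.99 on X and 0.32 on the autosomes.

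Some genes were high in both libraries. Ubb, a ubiquitin gene, was at 7533 CPM in A0 and 4745 CPM in B0, and at 8588 CPM in B0 at the limit, above A0. Rpl41, a ribosomal protein gene found in all cells of both libraries, was at 1821 and 6213 CPM (log2 ratio 1.77, and 1.34 at the limit). The metallothionein Mt1 was at 1652 and 4534 CPM. Rps29, another ribosomal protein gene, was at 973 and 4390 CPM and past the 4-fold call (2.17, and 1.90 at the limit), which the log2 ratios of the other 3 (-0.67 to 1.77) were not.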

How the data were processed

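Per the labels, testis cells were captured with 10x Genomics 3′ chemistry (version 2 kit) and processed with Cell Ranger 2.2.0 on mm10. The authors removed cells with under 200 genes and genes in under 3 cells, and deposited values on the natural log scale: the natural log of 1 plus 10000 times the share of a gene in the UMIs of its cell. UMIs were recovered by dividing the exponential minus 1 by the lowest such value in the cell. In total, 100% of values were whole within 0.001. Doublets were kept. The methods state that a set number of cells was forced in Cell Ranger, and neither library has that number.

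UMIs were summed per library, scaled to 1000000 (CPM) and compared as log2 ratios with 1 CPM added. Calls were made at 4-fold, without a test. Intervals were Poisson or Clopper-Pearson. A floor is 3 UMIs. Coordinates were GENCODE M21 (17546 symbols matched). The members and lists were chosen with earlier results of these data known. Genes named were the 10 largest rises and falls in log2 ratio, the 5 largest in CPM and at the common limit, the 5 highest members by mean CPM of each list, all pairs, and the highest genes of each library. Others were named after their values were seen, and not every gene that the rule selects is described. Scripts (Python 3.11.15, numpy 2.4.6, scipy 1.17.1, pandas 2.3.3) were tested on simulated counts.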

Additional observations from a re-analysis of the deposited data

How the results depend on the processing

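The counts of genes at least 4-fold higher and lower were 2986 and 973. They were 1207 and 537 with 10 CPM added in place of 1, 989 and 523 at the common UMI limit, 3281 and 1845 for the mean over cells, 3226 and 1603 without the 5% of cells with most UMIs, and 4370 and 2596 with a 2-fold call. With no filter (3984 and 977), a 10% filter (2041 and 934), upper quartile scaling (2976 and 988) or median centring (2678 and 1310), both stayed within 1.5 times. Of the 2986 higher genes, 13 passed the filter at the common limit with a lower level in B0 there. Of 16 list medians past 4-fold, 6 stayed past it at the common limit and 8 with 10 CPM added. Of 117 single genes past 4-fold, 81 and 101 did, and 112 under median centring, and none of these changed sign. Counting those short of 4-fold too, 4 of 26 list medians and 41 of 191 single genes changed sign at the common limit, and 2 single genes under median centring. No paired analysis was possible because each group was 1 library, and for the same reason no library could be left out. The differing UMI limits of the libraries limit what depth can show.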
